A study of Mus musculus with 8 samples.

Results

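The 8 genes of glucose sensing and β-cell excitability followed through the cells of isolated mouse islets were *Slc2a2*, *G6pc2*, *Kcnj11*, *Abcc8*, *Slc30a8*, *Cacna1c*, *Cacna1d* and *Trpm5*. They were taken by name from the 19945 genes of the deposited count table, and all 8 were found. Droplet-based scRNA-seq was made on islets handpicked from wild-type mice that had received vehicle or FAKi (PF562271, an inhibitor of the focal adhesion kinase FAK) by oral gavage in doses of 50 mg/kg, given 2 times daily over 3 weeks. Dosing had ended 10 days before the islets were isolated, and each condition pooled the islets of 5 mice. The mice were aged 6 to 12 weeks when the experiments began, and their strain is not given for these libraries in the sources used here. Each condition has 4 samples, taken here to be lanes of 1 library, so no value below has a biological replicate, no test between the conditions was possible, and the pooled mice cannot be told apart.

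A pancreatic β-cell turns the glucose level of the blood into insulin release. In rodents glucose enters through GLUT2, the transporter encoded by *Slc2a2*, and is phosphorylated, while the phosphatase encoded by *G6pc2* turns glucose 6-phosphate back into glucose. Metabolism raises ATP, which closes the KATP channel made of the pore Kir6.2 (*Kcnj11*) and the sulfonylurea receptor SUR1 (*Abcc8*). The membrane then depolarises, calcium enters through L-type channels whose pores are encoded by *Cacna1c* and *Cacna1d*, and insulin granules, loaded with zinc by the transporter ZnT8 (*Slc30a8*), are released. *Trpm5* encodes a cation channel opened by calcium that adds to the depolarisation.

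Levels are given in CPM, a scaled share: the UMIs of a gene (unique molecular identifiers, 1 per captured transcript), summed over a cell class of 1 library and divided by all UMIs of that class. All intervals are 95% intervals, exact Poisson for levels, exact conditional binomial for ratios and Clopper-Pearson for shares, and they cover counting error only. The vehicle library held 3776 cells and 59514118 UMIs and the FAKi library 3183 cells and 57836783 UMIs. The libraries shared 4 cell barcodes. β-cells numbered 1076 and 1336, with medians of 30792.5 and 30427.5 UMIs per cell. All 6 β-cell markers were detected in them and summed to 589103 and 601629 CPM. Among markers of other types in β-cells, *Ppy* stood at 1653 and 1067 CPM, the α-cell list at 1163 and 1396 CPM, the haemoglobin genes at 1233 and 173 CPM and the acinar markers at 684 and 733 CPM, while the other 8 lists summed to between 0.130 and 769 CPM. The class deposited as δ-cells held *Ppy*, the hormone gene of PP cells, at 144939 and 141153 CPM and *Pyy* at 71601 and 86459 CPM beside *Sst*, the δ-cell hormone gene, at 108920 and 107072 CPM, so it mixes δ- and PP-cell transcripts, and its values below are those of the whole class under its deposited name. The α-cell class held *Gcg* at 237273 and 267183 CPM, and its *Ppy* differed between the libraries, at 45503 and 16442 CPM, as did its *Pyy*, at 40019 and 17876 CPM. *Xist* was seen in 96.1% and 95.3% of β-cells.

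The genes lie on 6 chromosomes of GRCm38.p6, the assembly that mm10 names. *Kcnj11* (chr7:46097123-46100952) and *Abcc8* (chr7:46104523-46180039), the partners of the KATP channel, are neighbours with 3570 bases between them. *Trpm5* lies elsewhere on the same chromosome (chr7:143071529-143094642), *G6pc2* at chr2:69211073-69227993, *Slc2a2* at chr3:28697903-28728361, *Slc30a8* at chr15:52295553-52335798, *Cacna1c* on chromosome 6 and *Cacna1d* on chromosome 14. The RefSeq promoter table had entries for 5 of the 8 genes. The 250 bases before the first start of the 3 genes whose UMIs lay mainly in β-cells among the endocrine classes (below) are shown, 5′ to 3′ on the strand of the gene, with capitals for CANNTG, the E-box core read by bHLH factors such as NeuroD1, and for TAAT or its reverse complement ATTA, the core read by homeodomain factors such as Pdx1.
G6pc2 (chr2:69210823-69211072, plus strand): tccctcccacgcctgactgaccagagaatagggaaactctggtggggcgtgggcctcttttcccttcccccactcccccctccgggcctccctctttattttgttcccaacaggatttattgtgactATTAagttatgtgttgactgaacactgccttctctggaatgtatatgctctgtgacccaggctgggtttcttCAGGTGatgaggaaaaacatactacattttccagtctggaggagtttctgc
Slc2a2 (chr3:28697653-28697902, plus strand): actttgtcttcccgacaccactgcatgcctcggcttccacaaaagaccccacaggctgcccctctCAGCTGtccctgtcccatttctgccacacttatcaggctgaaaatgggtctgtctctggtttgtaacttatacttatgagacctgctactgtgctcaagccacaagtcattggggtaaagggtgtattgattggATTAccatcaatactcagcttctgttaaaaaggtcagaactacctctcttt
Trpm5 (chr7:143094643-143094892, minus strand): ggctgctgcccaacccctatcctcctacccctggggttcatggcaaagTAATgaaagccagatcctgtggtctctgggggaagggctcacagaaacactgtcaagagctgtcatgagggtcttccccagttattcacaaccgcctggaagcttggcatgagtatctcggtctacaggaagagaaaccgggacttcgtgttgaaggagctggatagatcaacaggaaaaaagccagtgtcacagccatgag
The *G6pc2* and *Slc2a2* stretches shown each held 1 CANNTG and 1 TAAT match, and that of *Trpm5* held 0 and 1. The 250 bases before start 2 of *G6pc2* (chr2:69219699-69219948), not shown, held 4 and 3. Both letter patterns are common, since 66.2% of the 32851 promoters of this length in the table held CANNTG and 54.9% held TAAT, both strands counted.

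*Slc2a2*, *G6pc2* and *Trpm5* were found mainly in β-cells among the hormone cells of the islet. *Slc2a2* stood at 378 CPM (371 to 385) in vehicle and 347 CPM in FAKi β-cells, against 2.90 and 2.50 CPM in α-cells and 5.14 and 4.69 CPM in δ-cells. *G6pc2* stood at 574 and 381 CPM in β-cells, 7.12 and 11.6 CPM in α-cells and 13.1 and 4.87 CPM in δ-cells. *Trpm5* stood at 161 and 173 CPM in β-cells and at 3.25 CPM or less in α- and δ-cells of either library. Free RNA in the droplets gives UMIs in cells that do not express a gene, and 1 source of it keeps its genes in 1 ratio in every class, so the small levels can be set against *Ins2*. Relative to *Ins2*, the main insulin transcript, α-cells held *Slc2a2* at 1.05 (0.526 to 1.89) and 0.728 (0.407 to 1.20) times the β-cell ratio, and *Trpm5* at 1.12 and 1.46 times. δ-cells held *Slc2a2* at 0.670 and 1.09 times and *G6pc2* at 1.12 and 1.03 times. Of these values only that of *Slc2a2* in δ-cells of vehicle had an interval without 1, which ended at 0.997. The *G6pc2* of α-cells lay above the β-cell ratio, at 1.70 times (1.12 to 2.48) the β-cell ratio in vehicle and 3.09 times (2.41 to 3.91) in FAKi, from 27 and 70 UMIs.

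The transcripts of the KATP channel were found in β-cells, in α-cells and in the mixed δ-cell class. *Kcnj11* stood at 57.6 and 47.1 CPM in δ-cells, 53.8 and 43.1 CPM in α-cells and 26.6 and 21.5 CPM in β-cells. *Abcc8* stood at 495 and 444 CPM in δ-cells, 474 and 388 CPM in α-cells and 250 and 221 CPM in β-cells. The β-cell interval lay below those of α- and δ-cells for both genes in both libraries, and the α- and δ-cell intervals overlapped except for *Abcc8* in FAKi. β-cells had 0.529 (0.502 to 0.557) times the α-cell level of *Abcc8* in vehicle and 0.569 times in FAKi, and 0.495 and 0.498 times that of *Kcnj11*. These levels are shares of the UMIs of a class, and *Ins1* and *Ins2* stood at 157500 and 394857 CPM in vehicle β-cells. The median log2 ratio of all genes, β-cells over α-cells, was -0.52 in vehicle and -0.60 in FAKi, against -0.92 and -0.81 for *Abcc8* and -0.99 and -0.97 for *Kcnj11*. With the 20 most abundant genes left out of the totals, *Abcc8* came to -0.25 and -0.044 and *Kcnj11* to -0.34 and -0.23, so most of the difference went with the scaling, and that of *Abcc8* in FAKi was within counting error of none.

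*Slc30a8* was found in α- and β-cells and was low in the mixed δ-cell class. It stood at 511 and 613 CPM in α-cells, 439 and 480 CPM in β-cells and 61.5 and 57.4 CPM in δ-cells. Its order between α- and β-cells turned with the scaling, from a log2 ratio, β-cells over α-cells, of -0.22 in vehicle and -0.35 in FAKi to 0.45 and 0.41 without the 20 most abundant genes. The δ-cell level was still 6.90 and 9.68 times the β-cell ratio to *Ins2*. With each cell thinned to 5000 UMIs, 11.6% of vehicle and 11.8% of FAKi δ-cells had a *Slc30a8* UMI, against 85.4% and 87.8% of β-cells.

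Both L-type pore genes were found across the endocrine classes. *Cacna1d* stood at 46.8 and 51.5 CPM in β-cells, 73.3 and 83.0 CPM in α-cells and 49.5 and 51.4 CPM in δ-cells, and the intervals of β- and δ-cells overlapped in both libraries. Without the 20 most abundant genes the log2 ratio of *Cacna1d*, β-cells over α-cells, went from -0.64 to 0.02 in vehicle and from -0.68 to 0.079 in FAKi, both level within counting error. *Cacna1c* stood at 14.9 and 15.5 CPM in β-cells, 26.1 and 19.0 CPM in α-cells and 18.6 and 18.1 CPM in δ-cells, and its log2 ratios moved with the same scaling. β-cells over α-cells went from -0.77 to -0.14 in vehicle and from -0.27 to 0.47 in FAKi, and β-cells over δ-cells from -0.31 to 0.30 in vehicle and from -0.20 to 0.43 in FAKi. It was highest in a class outside the endocrine islet. Pericytes, the contractile cells on capillaries, held it at 79.5 CPM (60.8 to 102) in vehicle and 92.6 CPM (58.7 to 139) in FAKi, with a UMI in 33.6% and 26.6% of cells, at medians of 4641 and 3400.5 UMIs per cell. In endothelial and immune cells, with medians of 5186 and 4883 UMIs, 1.36% and 3.32% of cells had one.

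Against α-cells, 7 of the 8 genes lay at least 1.5-fold apart in vehicle and 6 in FAKi, where 52.5% and 57.3% of all genes with at least 100 UMIs did. Without the 20 most abundant genes in the totals 3 did in each, *Slc2a2*, *G6pc2* and *Trpm5*, where 34.1% and 34.5% of all genes did. Against δ-cells, 6 lay so far apart in each library, where 53.4% and 51.7% of all genes did. Without the 20 most abundant genes both KATP calls were lost, at -0.35 in each library for *Abcc8* and -0.47 for *Kcnj11*, and *Cacna1d* in FAKi passed the limit at 0.65. That left 4 genes in vehicle and 5 in FAKi, all higher in β-cells, where 30.1% and 29.6% of all genes lay 1.5-fold apart. With all genes in the totals the direction split by gene: *Slc2a2*, *G6pc2* and *Trpm5* were higher in β-cells against both classes, *Slc30a8* against δ-cells, and *Kcnj11* and *Abcc8* were lower against both. *Cacna1d* was lower past the limit against α-cells, at -0.64 in vehicle and -0.68 in FAKi, and *Cacna1c* in vehicle, at -0.77. The median log2 ratio of all genes, β-cells over δ-cells, was -0.56 in vehicle and -0.54 in FAKi.

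**Figure D1:**
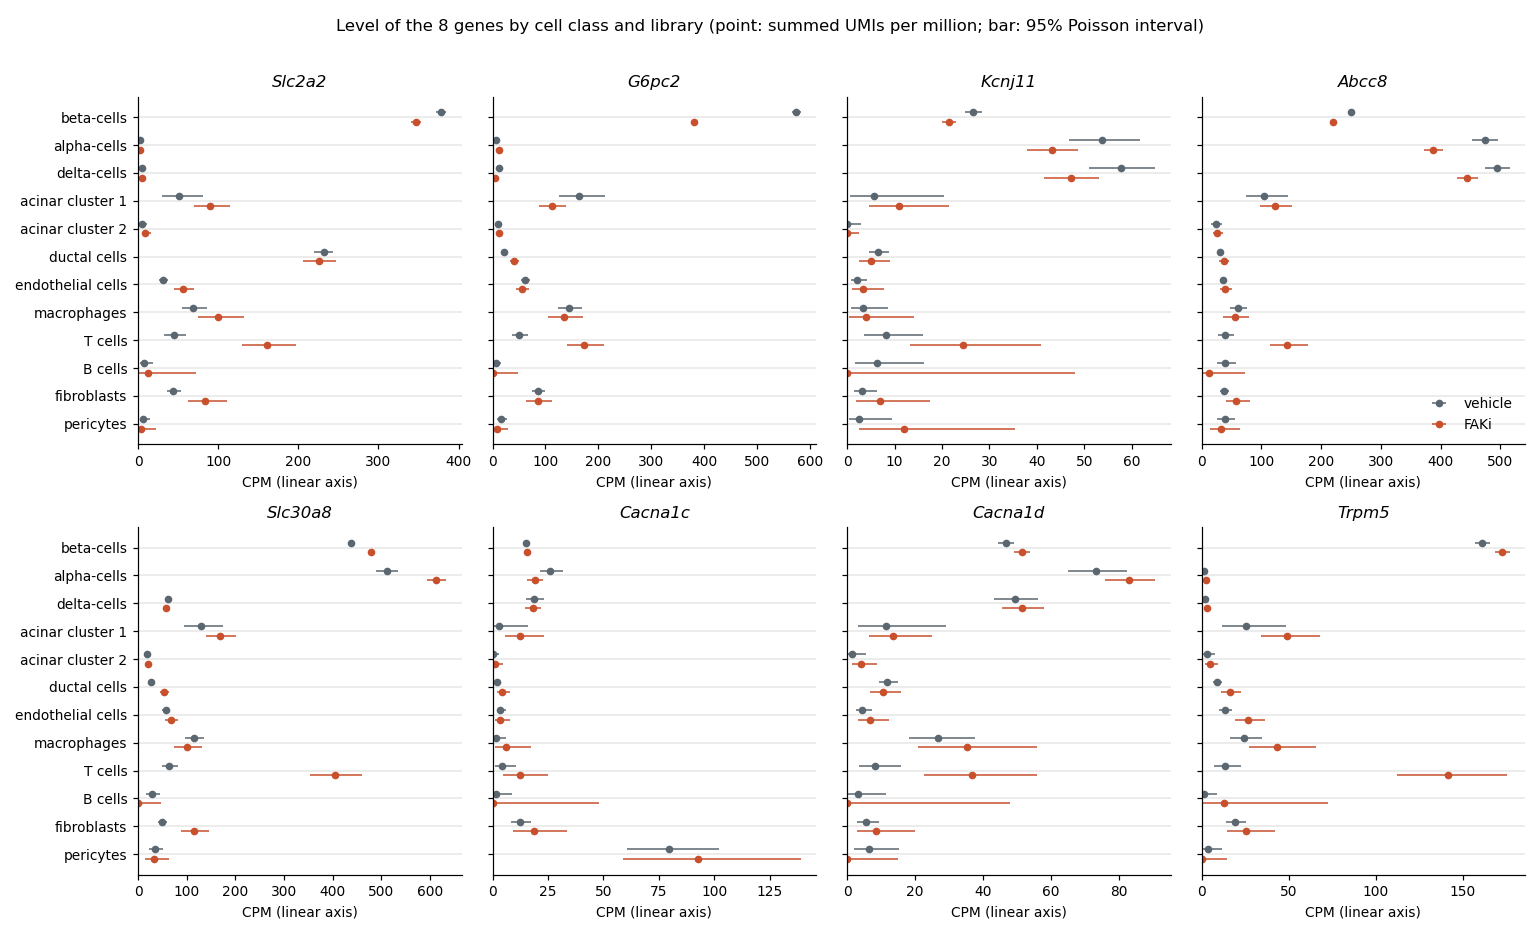
Level of each gene (CPM on a linear axis, 1 scale per gene) in the 12 deposited cell classes, with vehicle in grey and FAKi in orange; points are values of 1 library and bars 95% Poisson intervals. *Slc2a2* stands high in β-cells and ductal cells, *Kcnj11* and *Abcc8* are highest in α- and δ-cells, and *Cacna1c* is highest in pericytes; the T cells of FAKi, 28 cells with 293516 CPM of *Ins2*, hold UMIs of all 8 genes.

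Outside the endocrine islet, *Slc2a2* was a transcript of ductal cells too. Ductal cells line the pancreatic ducts. They held *Slc2a2* at 232 CPM (220 to 244) in vehicle and 226 CPM (206 to 247) in FAKi, the next level after β-cells in both libraries. This was 14.7 (13.9 to 15.5) and 7.18 (6.55 to 7.85) times the β-cell ratio to *Ins2*. A *Slc2a2* UMI was found in 75.9% of 498 vehicle and 76.3% of 156 FAKi ductal cells, at medians of 9546 and 9661.5 UMIs per cell. In ductal cells with under 1% *Ins2* UMIs the level was 226 and 212 CPM, and without called doublets 229 and 225 CPM. Thinned to 1000 UMIs, 19.2% and 18.7% of ductal cells kept a *Slc2a2* UMI, while 1.19% and 1.19% of endothelial and immune cells, which should lack it, did.

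The other genes found mainly in β-cells lay nearer to the *Ins2* ratio in ductal cells. *G6pc2* was at 0.882 (0.737 to 1.05) and 1.18 (0.951 to 1.46) times that ratio, and *Trpm5* at 1.33 (1.01 to 1.73) and 1.03 times. The channel genes lay above it, *Abcc8* at 3.02 and 1.86 times, *Kcnj11* at 5.91 and 2.60 times and *Cacna1d* at 6.07 and 2.27 times. The levels of *G6pc2* and *Slc30a8* differed between the libraries, *G6pc2* at 21.1 and 41.0 CPM and *Slc30a8* at 27.7 and 53.9 CPM, beside *Ins2* at 16469 and 36697 CPM in the same cells. The FAKi over vehicle ratio of *Slc2a2* there was 0.976 (0.879 to 1.08).

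In endothelial cells, macrophages and fibroblasts the genes other than the L-type pores lay between 0.651 and 1.77 times the β-cell ratio to *Ins2*. The *Ins2* behind these values lay in few droplets: 10 cells held between 81.6% and 97.2% of the *Ins2* UMIs of each of these classes, while the median cell had 14 to 31. The highest value, *G6pc2* in macrophages of FAKi, rests on 69 UMIs, 57 of them in 1 cell. In endothelial cells of vehicle *Slc2a2* was at 0.903 (0.748 to 1.08), *G6pc2* at 1.16 (1.01 to 1.32) and *Trpm5* at 0.899 (0.669 to 1.18) times the β-cell ratio. *Abcc8* lay above it in these cells, at 1.57 (1.31 to 1.85) times in vehicle and 1.32 (1.01 to 1.70) times in FAKi. *Slc30a8* was there at 1.39 (1.21 to 1.59) times in vehicle and 1.02 (0.833 to 1.24) times in FAKi. In vehicle macrophages *Slc30a8* was at 1.36 (1.14 to 1.61) and *G6pc2* at 1.31 (1.12 to 1.52) times. In macrophages *Cacna1d* was at 2.96 (2.02 to 4.20) and 3.42 (2.03 to 5.43) times the ratio, from 32 and 18 UMIs. In fibroblasts *Cacna1c* was at 7.22 and 5.40 times and in pericytes at 158 and 113 times.

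Acinar cluster 1, a class of exocrine cells with few UMIs per cell (medians 1480 and 1140), held 103583 and 173097 CPM of *Ins2* and had UMIs of all 8 genes in both libraries. *Slc2a2* stood there at 51.0 and 89.8 CPM, *G6pc2* at 164 and 112 CPM and *Abcc8* at 105 and 122 CPM. Per *Ins2* UMI, *Slc2a2* was at 0.515 (0.305 to 0.814) and 0.605 (0.467 to 0.770) times the β-cell ratio and *Abcc8* at 1.60 (1.12 to 2.20) and 1.30 (1.04 to 1.60) times. *G6pc2* was at 1.09 (0.828 to 1.41) in vehicle and 0.684 (0.544 to 0.850) in FAKi. The genes thus lay on both sides of the β-cell ratio, each within a factor of 2 of it where a gene had more than 10 UMIs. The part of free RNA in these levels was not tested beyond these ratios. In acinar cluster 2, deeper cells with 4604 and 6377 CPM of *Ins2*, *Kcnj11* had 0 UMIs in either library, which allows up to 2.33 CPM in vehicle and 1.99 CPM in FAKi by a limit of 3 counts (2.86 and 2.45 CPM by the exact Poisson interval), while *Abcc8* was at 8.24 (5.60 to 11.7) and 7.62 (5.44 to 10.4) times the ratio.

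**Figure D2:**
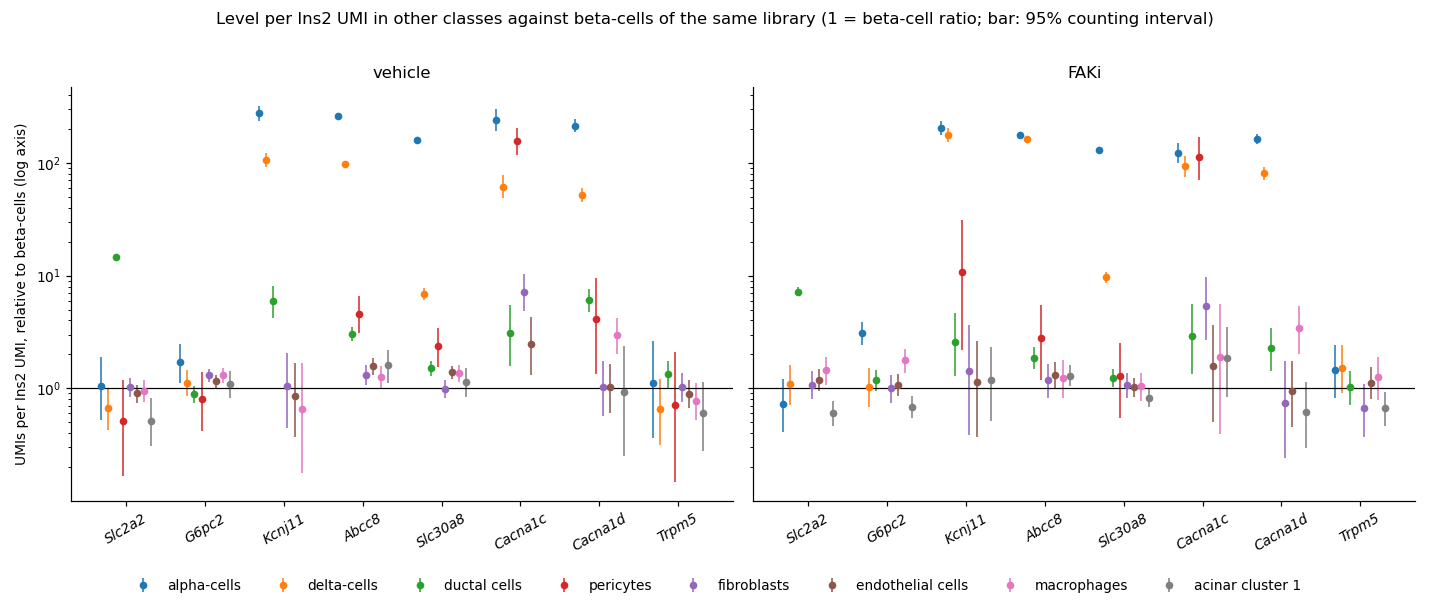
UMIs of each gene per *Ins2* UMI in 8 classes, divided by the same quantity in β-cells of that library (log axis, left vehicle, right FAKi); bars are exact 95% counting intervals, values under 3 UMIs are left out, and the line at 1 is the β-cell ratio. Endothelial cells and acinar cluster 1 lie around the line for most genes, ductal cells lie above it for *Slc2a2*, pericytes for *Cacna1c*, and α- and δ-cells for the KATP and L-type channel genes.

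Within β-cells, the question the design puts is whether FAKi treatment left the glucose sensing genes at another level. *G6pc2* gave the largest difference of the 8, at 574 CPM (566 to 583) in vehicle and 381 CPM in FAKi, a ratio of 0.664 (0.649 to 0.678). Its log2 ratio of -0.59 lay at percentile 1.64 of the 11059 genes with at least 100 UMIs. It was the only one of the 8 at least 1.5-fold lower, where 1.71% of all genes were, and 0 of the 8 were 1.5-fold higher, where 0.633% were. The value lies just past that limit: over 8 alternatives the log2 ratio ranged from -0.63 to -0.55, so the call was lost in several of them while the direction held in each.

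The other 7 genes differed less, and all but *Cacna1c* kept their direction over the same alternatives. *Slc2a2* stood at 378 and 347 CPM, a ratio of 0.919 (0.896 to 0.941). *Kcnj11* was at 0.806 (0.733 to 0.888) and *Abcc8* at 0.882 (0.855 to 0.909) of vehicle, so both KATP partners were lower. *Slc30a8* was at 1.09 (1.07 to 1.12), *Cacna1d* at 1.10 (1.03 to 1.18) and *Trpm5* at 1.07 (1.03 to 1.11) of vehicle. *Cacna1c*, at 14.9 and 15.5 CPM, had a ratio of 1.04 (0.925 to 1.18), a difference not detectable at this depth. Intervals without 1 were found for 7 of the 8 genes and for 36.4% of all genes, and they measure counting error in 2 libraries, not the spread between mice. The median log2 ratio of the 8 genes was -0.03 and that of all genes -0.04.

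In each of the β-cell clusters 0, 1 and 10 of the deposited annotation, *G6pc2* was lower in FAKi. It stood at 627 and 421 CPM in cluster 0 (650 and 675 cells), 522 and 341 CPM in cluster 1 (305 and 546 cells) and 338 and 211 CPM in cluster 10 (121 and 115 cells). The ratios were 0.672 (0.655 to 0.689), 0.653 (0.624 to 0.684) and 0.623 (0.565 to 0.686), and their intervals overlapped. As the mean of each cell's CPM, cluster 1 gave log2 ratios of -0.44 for *G6pc2* and -0.65 for *Kcnj11*, so there *Kcnj11* took its place past 1.5-fold. With summed UMIs, at least 1.5-fold either way lay 0 of the 8 genes in cluster 0, where 2.7% of all genes did, *G6pc2* alone in cluster 1, where 3.05% did, and *G6pc2* alone of the 7 with enough UMIs in cluster 10, where 3.48% did. *Kcnj11* was at 0.790 (0.699 to 0.892) and 0.771 (0.637 to 0.934) of vehicle in clusters 0 and 1 and at 0.997 (0.744 to 1.33) in cluster 10. *Abcc8* was at 0.878 (0.845 to 0.913), 0.910 (0.856 to 0.969) and 0.901 (0.829 to 0.979), but as the mean of each cell's CPM its log2 ratio in cluster 1 was 0.0017. *Trpm5* was level in cluster 0, at 1.01 (0.969 to 1.06), and higher in cluster 1, at 1.18 (1.10 to 1.27).

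**Figure D3:**
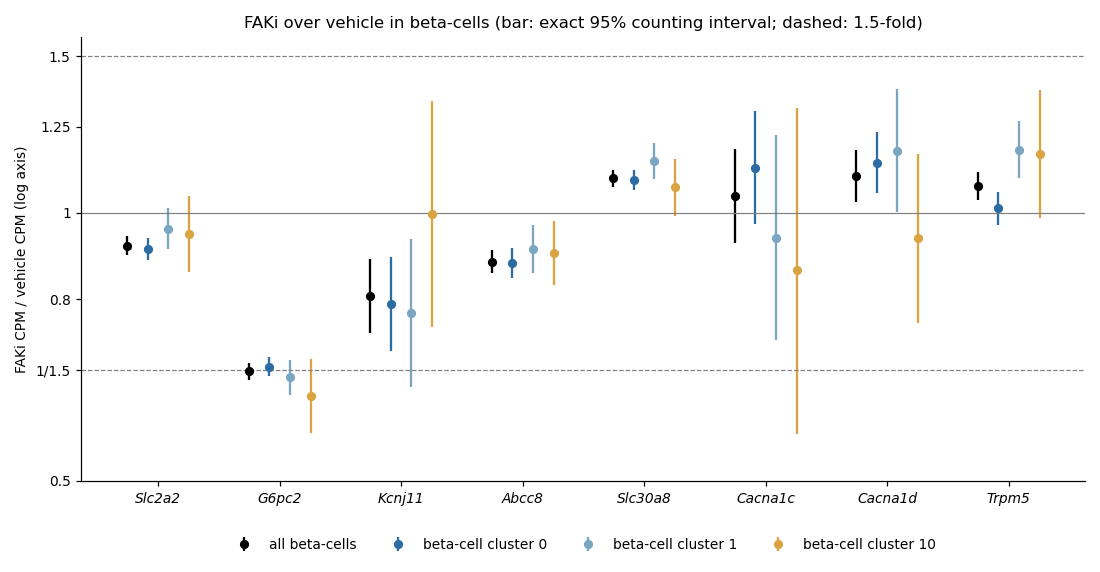
FAKi over vehicle ratio of CPM for the 8 genes (log axis) in all β-cells in black and in β-cell clusters 0, 1 and 10; bars are exact 95% counting intervals and dashed lines mark 1.5-fold. All 4 points of *G6pc2* sit near the lower dashed line, between 0.623 and 0.672, and no other gene comes as low.

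Taken by depth, *G6pc2* was lower in FAKi in every band of β-cells over 5000 UMIs and not in the shallowest cells. Among β-cells of 15000 to 30000 UMIs *G6pc2* stood at 604 CPM in 336 vehicle and 350 CPM in 366 FAKi cells, a ratio of 0.579 (0.553 to 0.607), and among those of 30000 to 60000 UMIs at 566 and 379 CPM. In cells of 5000 to 15000 UMIs the ratio was 0.851 (0.770 to 0.942), and over 60000 UMIs 0.761 (0.704 to 0.823). In β-cells of 5000 UMIs or fewer, 57 and 110 cells, it stood at 468 and 527 CPM, a ratio of 1.13 (0.830 to 1.55). The lower level was spread over the cells rather than confined to a few. With cells of cluster 0 thinned to 5000 UMIs, the median cell had 3 UMIs in vehicle and 2 in FAKi, and 92.7% (90.5 to 94.6) and 81.6% (78.5 to 84.5) had at least 1. Unthinned, 100% and 99.7% of cells of cluster 0 had at least 1 UMI, with medians of 18 and 13.

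**Figure D4:**
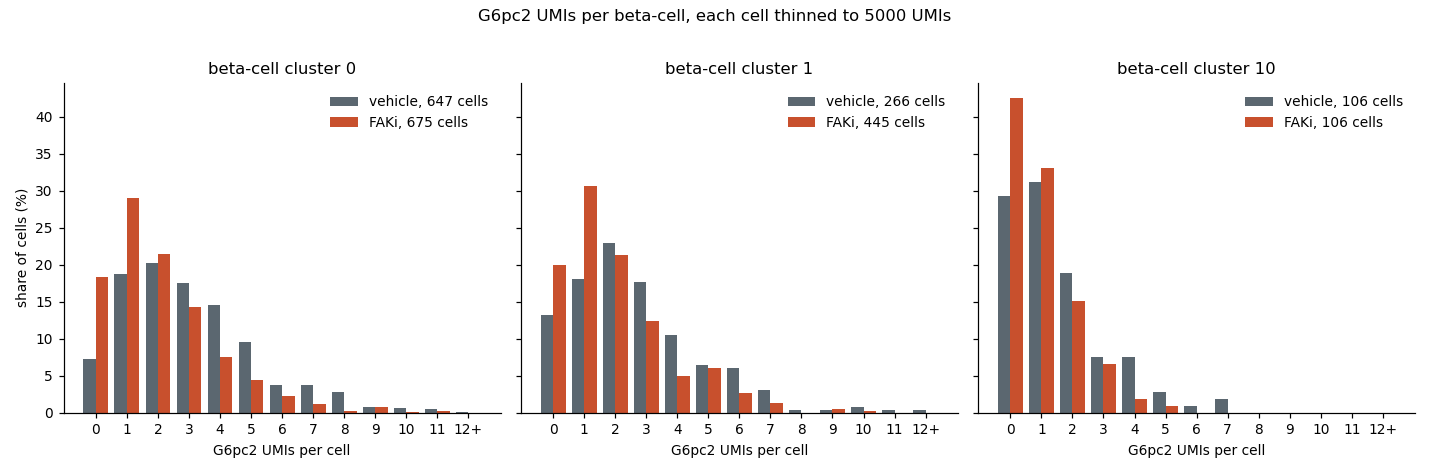
Share of β-cells (%) by their number of *G6pc2* UMIs after thinning every cell to 5000 UMIs, for clusters 0, 1 and 10, with vehicle in grey and FAKi in orange; 12+ stands for 12 or more. In cluster 0 cells with 0 UMIs make 7.26% of vehicle and 18.4% of FAKi, and the whole distribution lies further left in FAKi.

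Per *Slc2a2* UMI, *G6pc2* was lower in FAKi in β-cells and in the pooled cells of several other classes. It was higher in ductal cells and, on few UMIs, in α-cells. *G6pc2* UMIs per *Slc2a2* UMI were 1.52 in vehicle and 1.10 in FAKi β-cells. In endothelial and immune cells together they were 1.83 (462 and 252 UMIs) and 1.10 (252 and 229 UMIs), and in fibroblasts 1.95 and 1.02. Of these FAKi UMIs, 99 of *G6pc2* and 92 of *Slc2a2* came from the 28 cells called T cells, which held 55.8 CPM of T cell markers against 905 CPM in vehicle. Without T cells the pooled values were 1.98 and 1.12. A *G6pc2* UMI was found in 33 of 543 endothelial cells and 10 of 129 macrophages in vehicle. In FAKi it was found in 12 of 269 and 5 of 55. Whether these were the insulin-rich droplets was not tested. In δ-cells *G6pc2* had 61 UMIs in vehicle and 27 in FAKi, a ratio of CPM of 0.373 (0.228 to 0.596), beside *Ins2* at 8020 and 4999 CPM. In α-cells it went the other way, at 7.12 and 11.6 CPM, a ratio of 1.64 (1.04 to 2.65), beside *Ins2* at 2874 and 3996 CPM. Per *Slc2a2* UMI it stood there at 2.45 and 4.67, from only 11 and 15 *Slc2a2* UMIs and without an interval. In ductal cells, which hold *Slc2a2* beyond the *Ins2* ratio, it stood at 0.0912 and 0.181 per *Slc2a2* UMI, with a ratio of CPM of 1.94 (1.47 to 2.56).

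Both KATP genes were lower in FAKi in β-cells, in α-cells and in the mixed δ-cell class. Among all genes with at least 100 UMIs, *Abcc8* lay at percentile 23.6 in β-cells, 9.22 in α-cells and 30.8 in δ-cells. *Kcnj11* lay at 10.4, 7.72 and 14.7, so many other genes were lower still. In β-cells over 60000 UMIs *Abcc8* was at 1.13 (0.998 to 1.27). *Abcc8* was at 0.819 (0.770 to 0.871) of vehicle in α-cells and 0.898 (0.848 to 0.951) in δ-cells, beside 0.882 in β-cells. *Kcnj11* was at 0.801 (0.664 to 0.967) in α-cells and 0.818 (0.687 to 0.973) in δ-cells, beside 0.806 in β-cells. *Slc30a8* was at 1.20 (1.14 to 1.27) in α-cells and 0.934 (0.793 to 1.10) in δ-cells. *Cacna1c* of α-cells was at 0.726 (0.550 to 0.961), from 99 and 114 UMIs. In the same α-cells *Ppy* was at 45503 and 16442 CPM, and its part in the α-cell ratios was not tested. The classes come from the same 2 libraries, so they are not repeats of the treatment.

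Within 1 library, the genes lay near the level of cluster 0 in cluster 1. The clusters were drawn on these cells, so their ratios describe them and test nothing. Over cluster 0, cluster 1 had *Slc2a2* at 0.783 (0.748 to 0.819) in vehicle and 0.825 in FAKi, and *Cacna1d* at 0.685 (0.595 to 0.787) and 0.707. *Abcc8* was at 1.03 and 1.06. None of the 8 lay 1.5-fold apart in either library, where 2.6% of all genes did in vehicle and 1.81% in FAKi. Cluster 1 cells were shallower, with medians of 20070 and 16908 UMIs against 34677 and 34237 in cluster 0, and held 1265 and 1107 CPM of the acinar transcript *Prss2* against 24.2 and 47.3 CPM.

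Cluster 10 differed more. Over cluster 0, *Trpm5* was at 0.471 (0.415 to 0.532) in vehicle and 0.542 in FAKi, *G6pc2* at 0.540 (0.508 to 0.573) and 0.50, and *Slc2a2* at 0.619 (0.577 to 0.664) and 0.644. *Abcc8* was higher, at 1.55 (1.46 to 1.65) and 1.59 (1.49 to 1.70). These 4 genes lay 1.5-fold apart in both libraries, where 11% of all genes did in vehicle and 13% in FAKi, with medians over all genes of 0.18 in both. The 3 lower genes are those found mainly in β-cells. *Abcc8* was higher in α- and δ-cells by CPM, a difference that went mostly with the scaling. *Kcnj11*, also higher there by CPM, was at 1.15 (0.925 to 1.43) and 1.46 (1.15 to 1.82) over cluster 0. *Cacna1d* was at 1.09 and 0.895, and *Slc30a8* at 0.926 and 0.908. What sets these ratios was not tested. Cluster 10 also held 10276 and 11956 CPM of *Gcg*, 7015 and 8457 CPM of *Sst* and 15096 and 12054 CPM of *Ppy*, against 88.8 and 201, 33.9 and 73.1, and 57.5 and 79.0 CPM in cluster 0. Called doublets made 12 of its 121 vehicle and 18 of its 115 FAKi cells, and 0 of cluster 0. Cells that make several hormones and droplets with 2 cells cannot be told apart by these sums.

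Among cells thinned to 5000 UMIs, a *Kcnj11* and an *Abcc8* UMI were found together in 10.0% of vehicle cells of cluster 0, where the product of their shares, 12.7% and 69.9%, is 8.85%. In FAKi cells the shares were 9.93% and 60.4%, and both were found in 6.07%, where the product is 6.0%. In clusters 1 and 10 both were found in between 6.74% and 9.43% of cells, above the product in cluster 1 of FAKi and cluster 10 of vehicle and below it in the other two, at 9.02% against 9.51% and 9.43% against 10.2%. The highest Pearson correlation of any pair in any cluster and library was 0.42, between *Slc2a2* and *Cacna1c* in 106 vehicle cells of cluster 10, and the next highest 0.23. Over the 24 profiles of 12 classes in 2 libraries, *Kcnj11* and *Abcc8* correlated at 0.90 on the log2(CPM + 1) scale and *Slc2a2* and *Trpm5* at 0.88. The profiles share libraries and free RNA, so these values are descriptions.

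The genes whose profile over these 24 points was nearest to each member, among genes with at least 200 UMIs, fell by class. Nearest to *G6pc2* were *Mafa* (r 0.97), a transcription factor of mature β-cells, *Ucn3* (0.96), a peptide of mature β-cells, and *Tmem215* (0.96). Nearest to *Trpm5* were *Prss53* (0.95), *Prlr*, the prolactin receptor (0.92), and *Cox6a2* (0.90), and nearest to *Slc2a2* were *Trpm5* (0.88), *Prss53* (0.88) and *Plut* (0.86), a transcript beside *Pdx1*. *Abcc8* was nearest to *St18* (0.97), *Mapk8ip2* (0.97) and *Pgbd5* (0.97), *Kcnj11* to *Camk2b* (0.96), *Pcsk1n* (0.94) and *Fam183b* (0.94), and *Slc30a8* to *Ddc* (0.95), *Ociad2* (0.95) and *Neurod1* (0.92). *Cacna1d* was nearest to *A230057D06Rik* (0.94), *Efcab1* (0.94) and *Slc7a14* (0.93). *Cacna1c* was nearest to *Cacna2d1* (0.93), which encodes an auxiliary subunit of calcium channels, *Map7d2* (0.92) and *Rtn2* (0.92).

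Around the 8 genes, a list of 70 further genes of glucose uptake and phosphorylation, ion channels, pumps, calcium stores and zinc transport was counted in β-cells, 48 of which had at least 100 UMIs. By log2 ratios with 1 CPM added to each level, 0 of these were 1.5-fold higher in FAKi, 2 were 1.5-fold lower and 46 lay between. Their median log2 ratio was -0.09, where 0.633% of all genes were higher, 1.71% lower and the median was -0.04. The lower genes included *Kcnh2*, which encodes a potassium channel, at 22.2 and 14.4 CPM (ratio 0.646, 0.577 to 0.722). *Scn3a*, a sodium channel pore at 3.31 and 1.95 CPM, had the lowest log2 ratio of the 46 between, -0.54. The highest log2 ratios were those of *Slc8a1*, the sodium-calcium exchanger, at 0.36, from 20.7 and 26.8 CPM, *Cacna2d1* at 0.19 and *Itpr2* at 0.17. The GLP-1 receptor gene *Glp1r*, named after its values were seen, stood at 322 and 238 CPM, a ratio of 0.738 (0.717 to 0.759).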

How the data were processed

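The authors prepared 3′ libraries on a droplet platform, counted UMIs with Cell Ranger on mm10, filtered cells in Seurat 3.1, integrated the libraries and annotated clusters. The deposited table holds raw counts, and the mitochondrial percent and the cell type of each cell are as deposited by the authors. Counts were summed per class and library without further filtering. Ratios carry no pseudocount. Log2 ratios carry 1 CPM, and a gene was called at 1.5-fold with at least 100 UMIs in the 2 groups. Beside the 8 genes, the rule named pathway genes past 1.5-fold, the 3 highest and 3 lowest log2 ratios of the list, and the 3 genes nearest to each member; 1 gene this rule names is not reported here. The members and lists were chosen with earlier results of these data known. Doublets were called with scrublet (scanpy 1.11.5), 68 in vehicle and 57 in FAKi cells, and were kept. On simulated counts, over 20 draws (a number raised after a first single draw), intervals held the true ratio for 95.3% of 200 changed genes between the libraries' β-cells and 95.5% between clusters 1 and 0 in vehicle. Alternatives were CPM without the 20 most abundant genes, the mean of each cell's CPM, no called doublets, under 5% mitochondrial counts, under 1% acinar UMIs (a list of 16 genes), thinning to 5000 UMIs, subtraction of free β-cell RNA, a pseudocount of 0.1 CPM, limits of 1.25- and 2-fold, at least 20 UMIs, and *Ins1* or *Iapp* in place of *Ins2*. β-cells of 15000 to 60000 UMIs, the 2 subsets of ductal cells and the pool without T cells were added after seeing the data. Promoters and positions are from RefSeq. Python 3.11.15, numpy 2.4.6, scipy 1.17.1 and pandas 2.3.3 were used.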

Additional observations from a re-analysis of the deposited data

Results flagged for a closer look

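*G6pc2* went opposite ways in 2 endocrine classes of the same libraries: its FAKi over vehicle ratio was 0.664 in β-cells and 1.64 in α-cells, and both counting intervals left out 1. The α-cell value rests on 27 and 70 UMIs, in a class whose *Ppy* was at 45503 and 16442 CPM, and the difference between the classes was not tested, since each condition is 1 library.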

How the results depend on the processing

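No paired analysis was possible because the result comes from no test, and the shared lane numbers mark lanes of 1 library. Of the medians over the 8 genes recomputed under the alternatives, 87 stayed within the counting interval of the reported value and 13 moved outside it. Of the values of single genes, 603 stayed, 131 moved and 2 changed sign from a call. Between the libraries, the median in β-cells moved to -0.16 with cells thinned to 5000 UMIs. For cluster 1 over cluster 0 in FAKi it moved to -0.088 with the mean of each cell's CPM and -0.11 with thinning. For β-cells over α-cells it moved to 0.23 in vehicle and 0.44 in FAKi without the 20 most abundant genes, to -0.21 and -0.12 with cells under 5% mitochondrial counts, and to -0.53 in FAKi with thinning. For β-cells over δ-cells it moved to 2.01 and 2.18 without the 20 most abundant genes, to 0.73 and 1.31 with the mean of each cell's CPM, and to 1.58 in vehicle with thinning. *Cacna1d* in β-cells over α-cells moved to 0.02 in vehicle and 0.079 in FAKi, level within counting error, without the 20 most abundant genes. The genes 1.5-fold apart between β- and α-cells went from 7 to 3 in vehicle and from 6 to 3 in FAKi without the same genes. The causes were not tested. The call of *G6pc2* at 1.5-fold in β-cells was lost, leaving 0 of the 8 genes, without the 20 most abundant genes, with the mean of each cell's CPM, without called doublets, under 5% mitochondrial counts, with thinning and at 2-fold. In cluster 0 it was gained, giving 1 of 8, with the mean of each cell's CPM, with thinning and in cells of 15000 to 60000 UMIs. At least 100 UMIs were reached by all 8 genes in β-cells, but by 5 of them in α- and in δ-cells between the libraries, where counting error limits the rest.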

Other observations

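Pericytes held transcripts of another KATP pair. *Kcnj8* (Kir6.1) stood in pericytes at 194 CPM in vehicle and 282 CPM in FAKi, and *Abcc9* (SUR2) at 211 and 399 CPM, while β-cells held 0.0601 and 0 CPM of *Kcnj8* and 0.0300 and 0.0521 CPM of *Abcc9*, from 2 UMIs or fewer. In the same pericytes *Kcnj11* was at 2.61 (0.316 to 9.42) and 12.1 (2.49 to 35.3) CPM, from 2 and 3 UMIs. *Abcc8* was there at 39.1 and 32.2 CPM, from 30 and 8 UMIs. Potassium channel *Kcnk3* (140 and 101 CPM) and *Cacna2d1* (193 and 177 CPM) were also higher in pericytes than in β-cells, where they stood at 2.91 and 1.88 CPM and at 64.0 and 73.1 CPM. The pathway genes were named here after their values were seen.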
